A study of Mus musculus with 3 samples.

Results

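Leukocyte adhesion was followed here through 9 genes out of the 32285 in the count table, chosen by symbol: the ligands Icam1 and Vcam1, the β2 integrin chains Itgam, Itgal, Itgax and Itgb2, the α4β1 integrin chains Itga4 and Itgb1, and the selectin ligand Selplg. All 9 were found, and all 9 passed the filter on low counts over all leukocytes. Cells came from the aortas of 5 Jak2WT mice and 5 Jak2V617F Myel mice on a C57BL/6 background. The mutants came from a cross of LysM-Cre mice with Jak2V617F Flex/WT mice, so that the mutation is switched on mainly in myeloid cells, and the controls were littermates; males and females were used, and the age at sacrifice for this experiment is not given in the sources used here. At collection, 3 mutant mice had aortic dilation (mice 6, 8 and 10) and 2 had an aortic aneurysm (mice 7 and 9), while mice 1 to 5 were Jak2WT; the numbers are those of the hashtag antibodies that marked each mouse before pooling. Leukocytes in the circulation, labelled by an anti-CD45.2 antibody given into the blood, were left out of the sort. The cells came from aortic preparations, and thymocyte-like and cavity-type myeloid cells were among them.

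Integrins are receptors of 1 α and 1 β chain that hold leukocytes to other cells and to matrix. Itgb2 (CD18) pairs with Itgam (CD11b), Itgal (CD11a) or Itgax (CD11c), and these receptors bind ICAM1, while Itga4 (CD49d) with Itgb1 (CD29) binds VCAM1 and fibronectin. Selplg encodes PSGL-1, which binds P-selectin as leukocytes roll on the vessel wall. ICAM1 and VCAM1 are best known from inflamed endothelium, and leukocytes make them as well.

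A promoter was found for 5 of the 9 genes in the RefSeq table of GRCm38.p6, and that of Icam1 is printed because Icam1 is the gene whose level differed between genotypes in resident macrophages. It covers the 250 bases before the start that RefSeq gives, at chr9:21015690-21015939 on the plus strand. Capitals mark a match to GGAANTTCC, which begins 153 bases before the start, and a match to TTCNNNGAA, which begins 42 bases before it.
Icam1 promoter: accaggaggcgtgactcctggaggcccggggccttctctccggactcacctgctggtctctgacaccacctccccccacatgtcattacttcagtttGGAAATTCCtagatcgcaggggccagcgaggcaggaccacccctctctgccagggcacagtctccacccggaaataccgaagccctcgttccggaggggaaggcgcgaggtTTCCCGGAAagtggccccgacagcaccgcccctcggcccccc
The second pattern is the spaced palindrome that STAT factors, the targets of JAK2 kinase, are known to bind, and the first is of the type bound by NF-κB. Both patterns read the same on the opposite strand, and the marked matches do not overlap. TTCNNNGAA stood in 2306 of 32851 promoters of this length (7.02%) and GGAANTTCC in 267 (0.81%). The promoters of Itga4, Itgam, Itgax and Itgb1 held neither pattern. No promoter was found for Vcam1, Itgal, Itgb2 and Selplg, so nothing can be said of the patterns there. A match describes the letters in this window, and binding was not measured.

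The table held 8471 cell barcodes from a single pooled run. Of these, 5857 carried 1 hashtag, 986 of those were removed for more than 10% mitochondrial transcripts, and 4410 of the 4871 cells kept lay in clusters named as leukocyte types from marker genes (1546 cells from Jak2WT mice, 1350 with dilation, 1514 with aneurysm). A name such as macrophage means cells like that type by these markers. The members were kept out of the genes used for clustering. Unique molecular identifiers (UMIs), which count each captured molecule once, summed to 916825 to 5190732 per Jak2WT mouse, 3201825 to 8123784 with dilation, and 8725693 to 9390793 with aneurysm. The ranges of Jak2WT and dilation overlap, and values of mice with few UMIs, above all Jak2WT mouse 4, are the less precise. In macrophages every Jak2WT mouse (479565 to 1250204 UMIs) had fewer than every mutant mouse (1359728 or more). Levels are given as CPM, the UMIs of a gene per 1000000 UMIs of the same cells of that mouse. Because reads came from transcript ends, CPM does not scale with transcript length. Genotypes were compared on these sums by edgeR's quasi-likelihood F test with Benjamini-Hochberg adjustment over all genes tested, and a gene was called at an adjusted p under 0.05. All mice were measured in this 1 run. By the paper's methods, cells were stained before pooling, with a different dye on the anti-CD45.2 sorting antibody for each genotype. Effects of that step on antibody counts cannot be told apart from genotype. A lower level in a sum over cell types can be fewer cells of a type or less RNA per cell, and these cannot be told apart in the sum. The Jak2 transcript, which the Flex allele alters in sequence rather than removes, was not called between genotypes (log2 fold change 0.12, standard error 0.22, adjusted p = 0.894), and its level checks nothing about the mutation.

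Over all leukocytes, Vcam1 was the only member whose mutant mice lay entirely above the Jak2WT mice, and Icam1 came next. Neither passed the test across all genes, of which 1043 of 10433 had an unadjusted p under 0.05. The share of all genes or antibodies whose mice separate in this way was not counted, here or below. Vcam1 (chromosome 3, 116109949 to 116129688, minus strand) stood at 28.5, 26.1, 19.2, 2.18 and 18.3 CPM in Jak2WT mice 1 to 5. It stood at 35, 50.2 and 50.3 CPM in mice 6, 8 and 10 with dilation, and at 41.3 and 32.7 CPM in mice 7 and 9 with aneurysm. The means were 18.8 ± 10.3 CPM (SD, n = 5) in Jak2WT and 41.9 ± 8.27 CPM (SD, n = 5) in mutant mice, and mouse 4 was the lowest with only 2 UMIs. Between genotypes the log2 fold change was 1.08 (standard error 0.33, adjusted p = 0.381), in a comparison that called 0.00958% of 10433 genes (1 gene, not a member). Leaving out each mouse in turn gave 0.88 to 1.23.

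Icam1 (chromosome 9, 21015985 to 21028817, plus strand) stood at 91.4, 135, 66.4, 171 and 160 CPM in Jak2WT mice 1 to 5, at 183, 200 and 165 CPM with dilation, and at 211 and 205 CPM with aneurysm. The mean was 125 ± 44.8 CPM (SD, n = 5) in Jak2WT and 193 ± 18.7 CPM (SD, n = 5) in mutant mice, and 4 of 5 mutant mice lay above every Jak2WT mouse. The exception was mouse 10. Icam1 had a log2 fold change of 0.62 (standard error 0.24, adjusted p = 0.442).

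**Figure D1:**
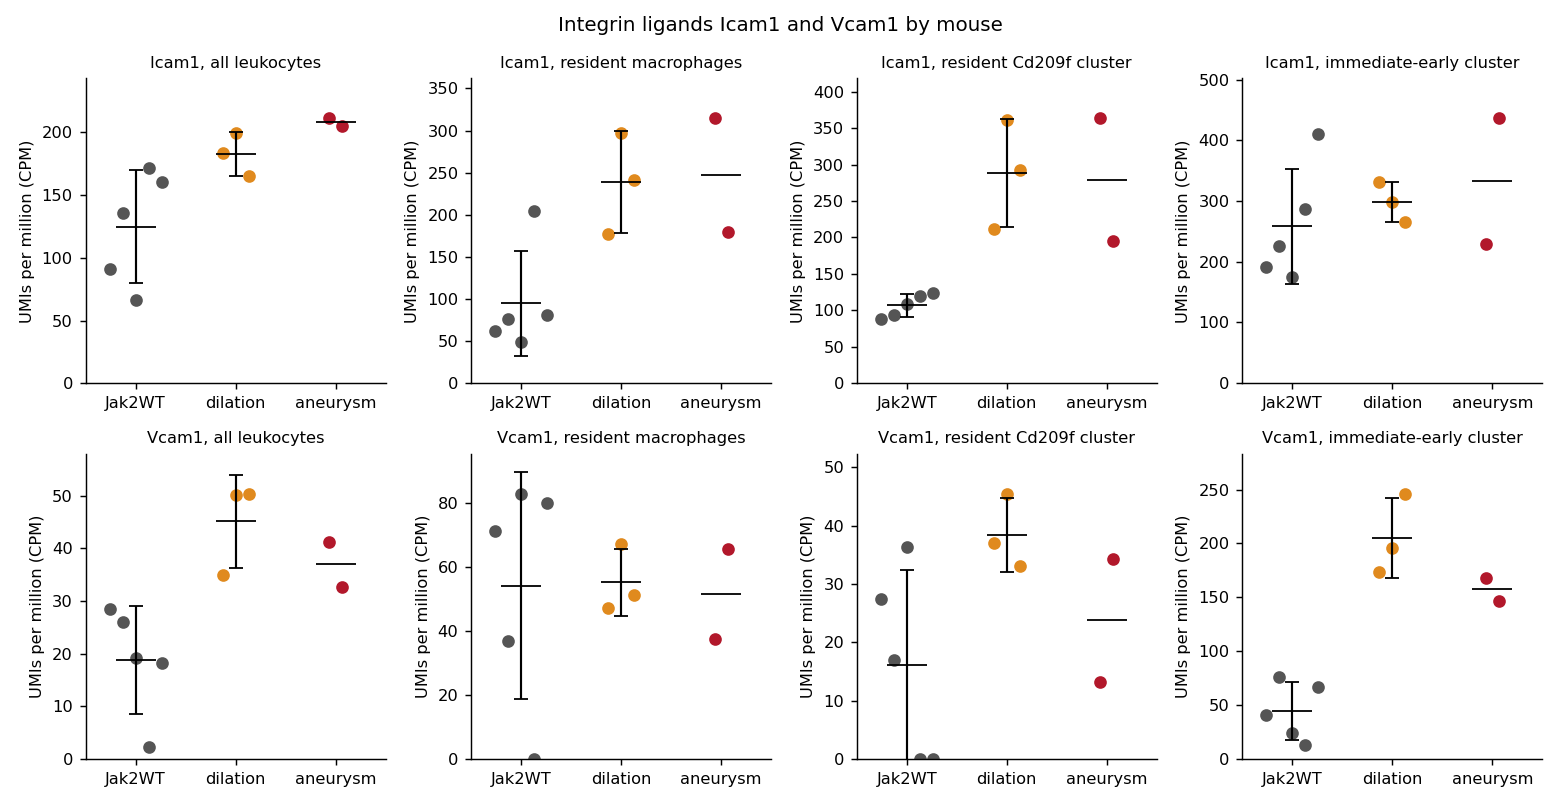
Levels of Icam1 and Vcam1 in CPM (linear axes from 0) for each of the 10 mice, in all leukocytes and in macrophage clusters; each point is a mouse, the bar is the group mean and the error bar is the SD, drawn only for groups of more than 2 mice. Icam1 in the resident Cd209f cluster and Vcam1 in the immediate-early gene (IEG) cluster are higher in all 5 mutant mice than in all 5 Jak2WT mice.

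The other 7 members did not pass the test over all leukocytes between genotypes, and their log2 fold changes lay between -0.11 and 0.29. The largest of these was that of Itgax (0.29, standard error 0.56), and the smallest in size that of Itgb2 (0.03, standard error 0.34). The median over the 9 members was 0.12, and over all genes tested it was -0.02. Between mice with dilation and Jak2WT mice, 0% of 11309 genes were called by edgeR (544 had an unadjusted p under 0.05, and DESeq2 called 9). There Vcam1 had a log2 fold change of 1.18 (adjusted p = 0.996) and Icam1 one of 0.53 (adjusted p = 0.996). Between aneurysm and dilation, 0.177% of 11309 genes were called (20, all higher with aneurysm) and no member was among them. These comparisons share mice, and the samples of 1 are the reference of another.

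**Figure D2:**
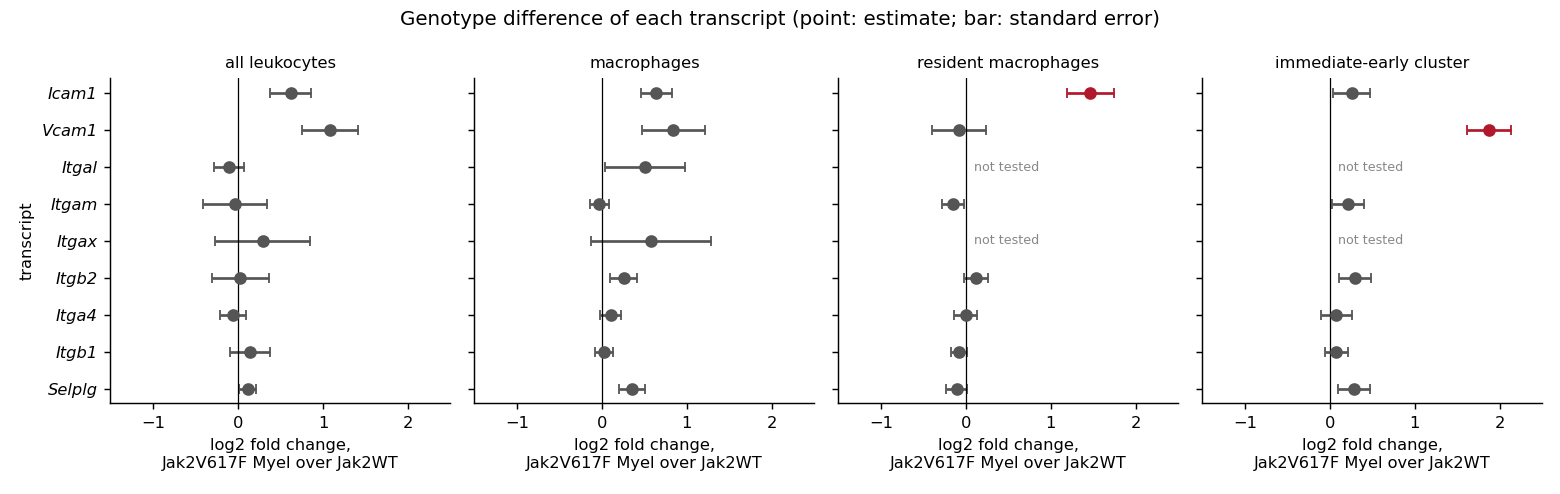
Log2 fold changes of the 9 members between Jak2V617F Myel and Jak2WT mice, with their standard errors as bars, over all leukocytes, macrophages, resident macrophages and the IEG cluster; red points passed the adjusted threshold of 0.05. Icam1 in resident macrophages (1.46) and Vcam1 in the IEG cluster (1.87) are the points that passed.

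The mix of cell types differed between mice, so each member was also averaged over the 5 types with at least 5 cells in every mouse (B cells, cDC2, ILC2, macrophages and T cells), with the same weights for each mouse. Standardised in this way, Icam1 was 115.8 ± 29.2 CPM (SD, n = 5) in Jak2WT and 166.6 ± 9.02 CPM (SD, n = 5) in mutant mice. The mice did not overlap, with a highest Jak2WT value of 154.5 and a lowest mutant value of 157.1 CPM (two-sided exact permutation test, p = 0.00794, unadjusted, the smallest that 5 against 5 allow). Adjusted over the 9 members by Benjamini-Hochberg, the p of this exact permutation test was 0.0715. With equal weights for the 5 types the difference was 27.5 CPM (two-sided exact permutation test, p = 0.0714). Vcam1, at 26.3 CPM in Jak2WT and 48.4 CPM in mutant mice, gave p = 0.0556 by the same exact permutation test, and the other 7 members gave p of 0.214 or more.

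By cell type, mean Icam1 was higher in most myeloid types than in lymphocytes, but mast cells were low (28.9 ± 36.2 CPM, SD, n = 7). It was highest in cavity-type myeloid cells, a cluster marked by Saa3 and Prg4 (237 ± 40.2 CPM, SD, n = 4 mice with at least 5 such cells). Macrophages (207 ± 57.9 CPM, SD, n = 10), cDC2 (198 ± 83.1 CPM, SD, n = 10) and cDC1 (190 ± 105 CPM, SD, n = 6) followed. Next came proliferating cells (188 ± 117 CPM, SD, n = 9) and neutrophils (188 ± 231 CPM, SD, n = 6). These neighbours in the order did not differ beyond their spread. Among lymphocytes, gd T cells were the highest (57.7 ± 37 CPM, SD, n = 8). T cells stood at 30 ± 20.8 CPM (SD, n = 10) and B cells at 20.9 ± 8.59 CPM (SD, n = 10). After each cell was thinned to 2000 UMIs, 28.5% of macrophages and 2.81% of B cells had an Icam1 UMI, against 56.4% at a median of 10505 UMIs and 9.98% at a median of 5390 UMIs without thinning.

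Among the leukocyte types, Vcam1 was mostly a transcript of macrophages. It reached 68 ± 35.7 CPM there (SD, n = 10), 9.87 ± 13.3 CPM in cDC2 (SD, n = 10) and 1.56 ± 2.86 CPM in B cells (SD, n = 10). In cDC1 and NK cells no UMI was found. After thinning, 7.47% of macrophages (exact 95% interval 6.29 to 8.81%) and 0.562% of B cells (0.116 to 1.63%) had a Vcam1 UMI, and 0 of 75 NK cells had one, which allows a share of cells with a Vcam1 UMI of up to 4% (3 counts of the 75 cells; the exact upper limit is 4.8%) and sets no limit on the share of cells that express the gene. Of 35 cells named from fibroblast, smooth muscle and endothelial markers, 5 had a Vcam1 UMI (14.3%, exact 95% interval 4.81 to 30.3%). That interval includes the share of macrophages. Such intervals cover counting error only and pool the cells of all mice.

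**Figure D3:**
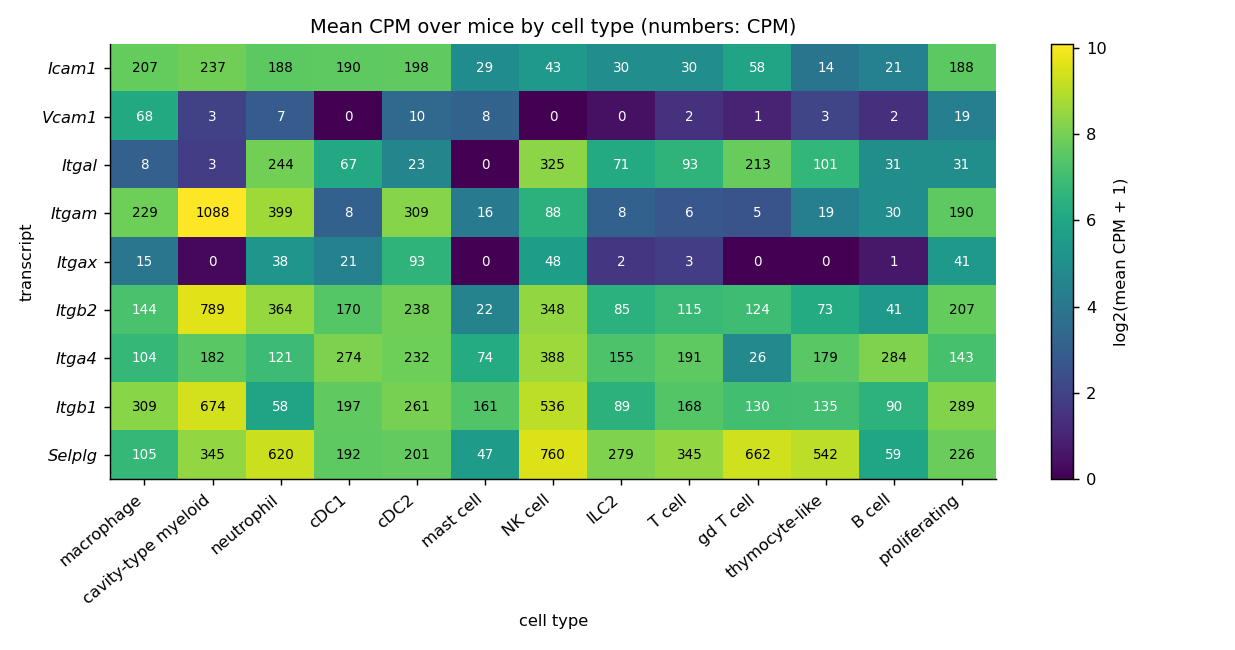
Mean CPM over mice of each member in each named leukocyte type, with cell colour on a log scale and the mean printed in each cell. Vcam1 is highest in macrophages, Icam1, Itgam and Itgb2 in cavity-type myeloid cells, Itgax in cDC2, and Itgal, Itga4 and Selplg in NK cells.

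Macrophages were 1772 cells, in which the question was whether the ligands differed within 1 cell type. Icam1 stood at 105, 139, 146, 229 and 207 CPM in Jak2WT mice, at 223, 283 and 242 CPM with dilation, and at 251 and 248 CPM with aneurysm. Again 4 of 5 mutant mice exceeded every Jak2WT mouse. The log2 fold change between genotypes was 0.64 (standard error 0.19, adjusted p = 0.257), and 0% of 8187 genes were called in this comparison by edgeR, although 976 had an unadjusted p under 0.05 and DESeq2 called 52. Vcam1 gave 0.84 (standard error 0.37, adjusted p = 0.4) and Selplg 0.35 (standard error 0.16, adjusted p = 0.4). Between dilation and Jak2WT, 0.0221% of 9036 genes were called and no member. Icam1 had a log2 fold change of 0.62 there and Vcam1 one of 1.08 (adjusted p = 0.438 and 0.432).

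The first clustering divided macrophages into a cluster of 1194 cells marked by Lyve1, a gene of vascular resident macrophages, and a cluster of 578 cells marked by Spp1 and Il1b. The Spp1 and Il1b cluster made up 11 to 15.7% of macrophages in Jak2WT mice, 10.3 to 13.1% with dilation, and 66.8 and 54.3% in mice 7 and 9 with aneurysm. In the Lyve1 cluster alone, an alternative added after values were seen, Icam1 rose in mutant mice. It stood at 114, 132, 112, 205 and 177 CPM in Jak2WT mice, at 228, 293 and 239 CPM with dilation, and at 276 and 259 CPM with aneurysm. All 5 mutant mice lay above all 5 Jak2WT mice, with a log2 fold change of 0.83 (standard error 0.15, adjusted p = 0.02), where 0.411% of 7783 genes were called. The 8 alternatives to the fit over all macrophages spanned adjusted p values from 0.02 to 0.263 for Icam1. The lowest of these, 0.02, is that of the Lyve1 cluster alone, given above.

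Resident macrophages are the macrophages that live in the vessel wall, and here they are 2 clusters of a second clustering of the macrophages, with 446 cells led by Cd209f and 257 led by Txnip. The IEG cluster also had Lyve1 and Cd163 among its first 10 genes but was not counted as resident. It made up 20 to 50.5% of macrophages in Jak2WT mice and 12.4 to 35.7% in mutant mice. Its Icam1 level was 258 CPM in Jak2WT and 312 CPM in mutant mice (means, n = 5 each), and was not called. In the 2 resident clusters together Icam1 rose in mutant mice, and it was the only member called (1 of the 7 tested), in a comparison that called 1.76% of 6821 genes. Itgal and Itgax were too low to be tested. Icam1 stood at 62.3, 76.1, 49.2, 204 and 81.5 CPM in Jak2WT mice 1 to 5, at 177, 298 and 242 CPM with dilation, and at 315 and 180 CPM with aneurysm. Mouse 4 stood apart from the other Jak2WT mice and above mice 6 and 9. The means were 94.7 ± 62.6 CPM (SD, n = 5) in Jak2WT and 242 ± 64.1 CPM (SD, n = 5) in mutant mice. This was a log2 fold change of 1.46 (standard error 0.27, adjusted p = 0.0101). It was called without each mouse in turn (1.32 to 1.85, adjusted p from 0.000193 to 0.0492) and under 8 alternatives (1.28 to 1.52, adjusted p from 4.31e-17 to 0.0314).

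The 2 resident clusters differed both in Icam1 and in their share per mouse. The Cd209f cluster made up 22 to 65.9% of resident macrophages in Jak2WT mice and 71.5 to 84.8% in mutant mice, and after thinning 26.6% of its cells had an Icam1 UMI against 8.66% in the Txnip cluster. Within the Cd209f cluster alone, Icam1 stood at 87.6, 93.4, 109, 120 and 123 CPM in Jak2WT mice, at 212, 360 and 293 CPM with dilation, and at 364 and 195 CPM with aneurysm. The groups did not overlap, and mouse 4 did not stand apart. Within this cluster the log2 fold change was 1.43 (standard error 0.21, adjusted p = 0.00336), with 0.273% of 5488 genes called, so the difference was about as large as in both clusters together. The Jak2WT values rest on few molecules, between 9 and 44 UMIs from 7 to 40 cells per mouse. In the Txnip cluster Icam1 was too low to be tested, at 28.8 to 49.6 CPM in Jak2WT mice other than mouse 4, 251 CPM in mouse 4, and 34.9 to 83.4 CPM in mutant mice.

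Marker sums in resident macrophages show what else moved with these groups. The summed level of 8 macrophage markers was 20702 to 23710 CPM in Jak2WT and 19465 to 22745 CPM in mutant mice, and all 8 were detected in every mouse. The 5 markers of Ccr2+ inflammatory macrophages summed to 64.6 to 289 CPM in Jak2WT, 123 to 204 CPM with dilation, and 300.2 and 304 CPM with aneurysm. The 5 immediate-early genes (Egr1, Zfp36, Jun, Fos and Ier2) summed to 8184 to 13975 CPM in Jak2WT and 12030 to 15805 CPM in mutant mice, and their part in the Icam1 result was not tested. The 9 markers of fibroblasts, smooth muscle and endothelium stayed at 15.4 to 42.1 CPM in Jak2WT and 14.9 to 60.5 CPM in mutant mice. The 4 erythroid markers summed to 2119 CPM in mouse 10 and to 61.5 to 84.2 CPM in the other 9 mice. Leaving mouse 10 out kept Icam1 called, as given above.

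The other 6 members tested in resident macrophages had log2 fold changes between -0.15 and 0.12. Vcam1 was 71.4, 37, 83, 0 and 80.1 CPM in Jak2WT mice, 47.4, 67.3 and 51.5 CPM with dilation, and 37.5 and 65.7 CPM with aneurysm, so the groups overlapped (log2 fold change -0.08, adjusted p = 0.963). That value is over both resident clusters, which differ in Vcam1 (24.4 CPM in the Cd209f cluster and 121 CPM in the Txnip cluster) and whose shares differ between the genotypes. Within the Cd209f cluster the log2 fold change was 1.29 (adjusted p = 0.452) and within the Txnip cluster 0.64 (adjusted p = 0.773), and neither was called. In the IEG cluster, 456 macrophages marked by the immediate-early genes, Vcam1 rose in mutant mice. This comparison was added after values were seen. Vcam1 stood at 40.5, 76, 24.4, 13 and 66.9 CPM in Jak2WT mice, at 173, 196 and 246 CPM with dilation, and at 168 and 147 CPM with aneurysm. The lowest mutant mouse was at 147 CPM and the highest Jak2WT mouse at 76 CPM. Vcam1 had a log2 fold change of 1.87 (standard error 0.26, adjusted p = 0.00202), and only 0.0425% of 4704 genes were called there (2 genes, Vcam1 1 of them). Without each mouse in turn it was 1.63 to 2.19, with adjusted p from 0.00137 to 0.0122.

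The depth behind the Vcam1 values was 1 to 35 UMIs per Jak2WT mouse, from 9 to 55 cells, and 59 to 193 UMIs per mutant mouse, from 35 to 85 cells. DESeq2 gave a log2 fold change of 1.89 and no adjusted p for Vcam1. Icam1 in the same cluster stood at 192, 226, 176, 287 and 411 CPM in Jak2WT mice and at 229 to 436 CPM in mutant mice, and it was not called there (0.25 on the log2 scale, adjusted p = 0.814). Over all macrophages, the immediate-early genes summed to 12968 to 19277 CPM in Jak2WT mice, 15146 to 17884 CPM with dilation, and 9169 and 9437 CPM with aneurysm. The IEG cluster made up 20 to 50.5% of macrophages in Jak2WT mice, 26.9 to 35.7% with dilation, and 12.4 and 14% with aneurysm. Within that cluster, where Vcam1 was called, the immediate-early genes were not summed. The part of these genes in the Vcam1 result was not tested.

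The β2 chain Itgb2 (chromosome 10, 77530252 to 77565708, plus strand) and the α chain Itgam (chromosome 7, 128062640 to 128118491, plus strand), which together form the complement receptor Mac-1, varied over all leukocytes with a few mice rather than with genotype. Itgam stood at 221, 189, 112, 211 and 469 CPM in Jak2WT mice, at 148, 232 and 391 CPM with dilation, and at 215 and 203 CPM with aneurysm. Mice 5 and 10 were the highest, with Itgb2 at 378 and 300 CPM against 98.2 to 199 CPM in the other 8 mice. Cavity-type myeloid cells made up 15.4 and 14.0% of the leukocytes of these 2 mice, and these cells had the highest Itgam (1088 ± 311 CPM, SD, n = 4) and Itgb2 (789 ± 121 CPM, SD, n = 4). No member was called over all leukocytes in any of the 3 comparisons, either with or without this type and thymocyte-like cells. The part of these cells in the Itgam and Itgb2 values was not tested. Neutrophils followed for Itgam (399 ± 177 CPM, SD, n = 6), then cDC2 (309 ± 62.7 CPM, SD, n = 10) and macrophages (229 ± 23.2 CPM, SD, n = 10). Macrophages overlapped with cDC2 in the spread.

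Within macrophages Itgam was among the steadiest members. It was 206 to 266 CPM in Jak2WT, 193 to 246 CPM with dilation, and 230 and 231 CPM with aneurysm (log2 fold change between genotypes -0.03, standard error 0.11). Itgb2 in macrophages was 133 ± 26.6 CPM in Jak2WT (SD, n = 5) and 155 ± 23.7 CPM in mutant mice (SD, n = 5), with a log2 fold change of 0.26 (adjusted p = 0.527).

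Itgal (chromosome 7, 127296260 to 127335138, plus strand), the α chain of LFA-1 that lymphocytes use to hold on to ICAM1, was a gene of NK cells (325 ± 82.9 CPM, SD, n = 6), neutrophils (244 ± 159 CPM, SD, n = 6) and gd T cells (213 ± 72.2 CPM, SD, n = 8), which overlapped. Thymocyte-like cells had 101 ± 21 CPM (SD, n = 4) and T cells 92.6 ± 29.2 CPM (SD, n = 10), while macrophages had 7.56 ± 4.25 CPM (SD, n = 10). In T cells Itgal stood at 57.4 to 109 CPM in Jak2WT and 79.3 to 153 CPM in mutant mice (log2 fold change 0.46, standard error 0.22, adjusted p = 0.65), and 0% of 3175 genes were called by edgeR (237 had an unadjusted p under 0.05, and DESeq2 called 0). Of the members, 5 were tested in T cells, 4 in B cells (0% of 3303 genes called by edgeR, 149 with an unadjusted p under 0.05, and 3 called by DESeq2), 8 in cDC2 (0.0456% of 4384 genes called) and 4 in ILC2 (0% of 1870 genes called by edgeR, 116 with an unadjusted p under 0.05, and 0 called by DESeq2). No member was called in these 4 types, and the largest difference was that of Itgb1 in ILC2 (log2 fold change -1.13, standard error 0.40, adjusted p = 0.674). That difference rests on Jak2WT mouse 2, at 300.3 CPM against 46.4 to 79 CPM in the other mice, and without it the log2 fold change was 0.03 (-1.33 to -1.07 without each of the other mice in the comparison).

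Itgax (chromosome 7, 128129547 to 128150657, plus strand), which encodes CD11c, an α chain that pairs with Itgb2, rose between dilation and aneurysm in macrophages. It stood at 3.68, 8.51 and 3.99 CPM in mice 6, 8 and 10 with dilation, and at 25.7 and 40.6 CPM in mice 7 and 9 with aneurysm. Jak2WT mice spread over both, at 27.7, 18, 1.17, 12.5 and 5.6 CPM. Between aneurysm and dilation it differed by a log2 fold change of 2.75 (standard error 0.53, adjusted p = 0.00492), in a comparison that called 10.2% of 9036 genes (536 higher with aneurysm and 383 lower, or 446 and 507 when scaled to library totals), and Itgax was the only one of 9 members called, a share near that of all genes. Without mouse 9 it was 2.38 with an adjusted p of 0.0524, so the call rests on that mouse; the 6 other alternatives gave 2.68 to 2.89 with adjusted p from 3.59e-19 to 0.00594.

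Over all leukocytes Itgax stood at 17.2, 16.2 and 9.6 CPM with dilation, 40.3 and 47.6 CPM with aneurysm, and 6.74 to 35 CPM in Jak2WT mice, and it was not called (log2 fold change between aneurysm and dilation 1.68, standard error 0.60, adjusted p = 0.428).

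Itgax was lower in the Lyve1 cluster than in the Spp1 and Il1b cluster in every mouse. In the Lyve1 cluster it was at 0 to 2.59 CPM in every mouse, too low to be tested, and 0% of 8634 genes were called there by edgeR between aneurysm and dilation (310 had an unadjusted p under 0.05). In the Spp1 and Il1b cluster, whose share is given above, it stood at 181, 109, 7.6, 53.1 and 35.7 CPM in Jak2WT mice, at 15.6, 41.8 and 23.9 CPM with dilation, and at 36 and 64.2 CPM with aneurysm. These ranges overlapped, and they rest on 7 to 28 cells per mouse outside the aneurysm mice, which had 243 and 209 cells. Over all macrophages, Jak2WT mice 1 and 2 had 27.7 and 18 CPM with 11 and 15.7% of their macrophages in that cluster, while mouse 7 with aneurysm had 25.7 CPM with 66.8%. The part of this share in the difference between aneurysm and dilation was not tested. Averaged over the 5 types with fixed weights, Itgax was 30.8 CPM with aneurysm and 16.2 CPM in the other 8 mice (two-sided exact permutation test, p = 0.0444, unadjusted, where the smallest that 2 against 8 allow is 0.0222). Adjusted over the 9 members, the p of this exact permutation test was 0.4. With equal weights the same exact permutation test gave p = 0.267. Leaving out each of the other 8 mice in turn, it gave p from 0.0278 to 0.0556. Without mouse 7 or mouse 9 only 1 mouse with aneurysm is left, and the test cannot reach 0.05 there. The differences were then 19.5 and 9.73 CPM. Across types, Itgax was highest in cDC2 (93.1 ± 37.3 CPM, SD, n = 10), which made up 14.2 and 13.6% of leukocytes in mice 7 and 9 with aneurysm and 1.57 to 12.4% in Jak2WT mice.

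**Figure D4:**
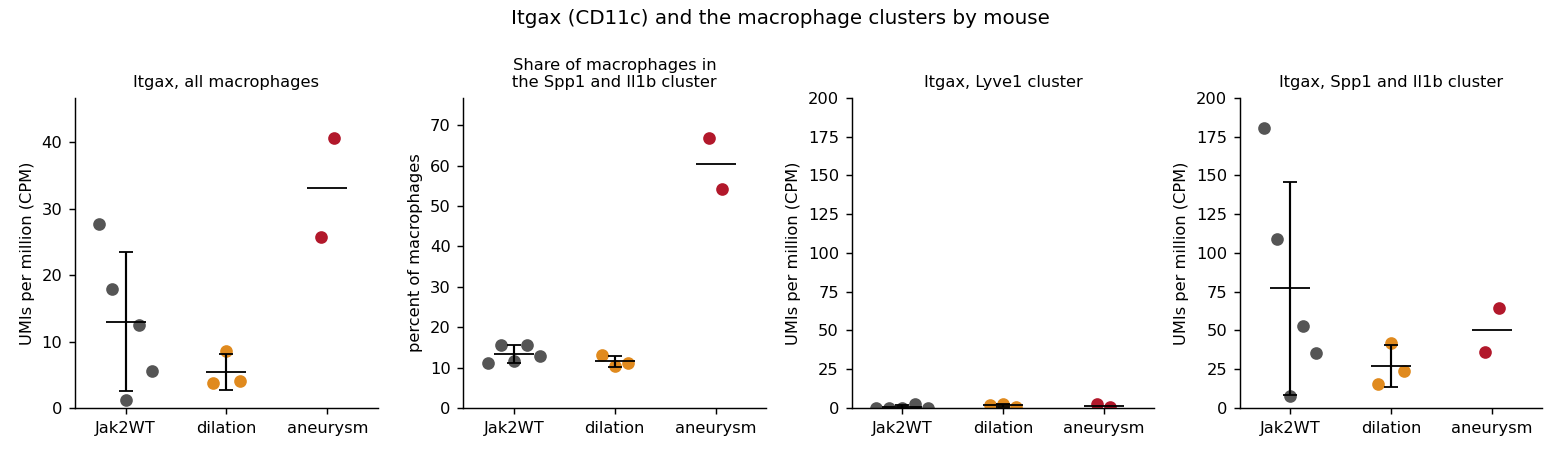
Itgax in CPM per mouse in all macrophages, the percent of macrophages that lie in the Spp1 and Il1b cluster, and Itgax in CPM in the Lyve1 cluster and in the Spp1 and Il1b cluster; each point is a mouse, the bar is the group mean and the error bar is the SD, drawn only for groups of more than 2 mice. In all macrophages the 2 mice with aneurysm (25.7 and 40.6 CPM) lie above the 3 with dilation, their cluster shares are 66.8 and 54.3%, and in the Lyve1 cluster every mouse is at or below 2.59 CPM.

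Itga4 (chromosome 2, 79255426 to 79333123, plus strand) and Itgb1 (chromosome 8, 128685654 to 128733200, plus strand), the chains of the VCAM1 receptor, were not called between genotypes. In macrophages Itga4 was 102 ± 13.4 CPM in Jak2WT (SD, n = 5) and 106 ± 11.6 CPM in mutant mice (SD, n = 5), with a log2 fold change of 0.10 (standard error 0.13). Itgb1 was 311 ± 27.9 and 308 ± 19.4 CPM in the same order, with a log2 fold change of 0.03 (standard error 0.10). Their standard errors are the smallest of the members in macrophages together with that of Itgam. Across types Itga4 was highest in NK cells (388 ± 190 CPM, SD, n = 6) and B cells (284 ± 63.8 CPM, SD, n = 10), and lowest in gd T cells (25.7 ± 25.4 CPM, SD, n = 8). Itgb1, which pairs with many α chains, was highest in cavity-type myeloid cells (674 ± 80.2 CPM, SD, n = 4) and NK cells (536 ± 157 CPM, SD, n = 6), and lowest in neutrophils (58.4 ± 69.2 CPM, SD, n = 6).

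Selplg (chromosome 5, 113818536 to 113832644, minus strand) was the steadiest member over all leukocytes, at 183 to 212 CPM in Jak2WT mice and 194 to 233 CPM in mutant mice (log2 fold change 0.12, standard error 0.10, adjusted p = 0.709). NK cells, gd T cells and neutrophils had 760 ± 113 (SD, n = 6), 662 ± 112 (SD, n = 8) and 620 ± 217 CPM (SD, n = 6), and macrophages 105 ± 20.3 CPM (SD, n = 10), with B cells and mast cells lower at 59.3 ± 28 (SD, n = 10) and 47.2 ± 21 CPM (SD, n = 7). In macrophages it was 103 ± 7.02 CPM with dilation (SD, n = 3), and 128 and 140 CPM in the mice with aneurysm, a log2 fold change of 0.45 that was not called (adjusted p = 0.105).

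Antibodies with a DNA tag gave the surface level of 4 of these proteins (CD11b, CD11c, CD49d and ICAM1), in counts per cell. Of 75 antibodies, 73 had counts, and all 73 were tested together. Over all leukocytes 0% were called by edgeR between genotypes, 0% between dilation and Jak2WT, and 0% between aneurysm and dilation, with 13, 11 and 8 antibodies at an unadjusted p under 0.05.

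CD11b on the surface stood at 161, 190, 93.2, 142 and 405 counts per cell in Jak2WT mice, at 184, 245 and 463 with dilation, and at 212 and 221 with aneurysm. Mice 5 and 10 were high as they were for Itgam (log2 fold change between genotypes -0.06, standard error 0.38, adjusted p = 0.942). Within macrophages, where 0% of antibodies were called by edgeR between genotypes and 0% between dilation and Jak2WT (7 and 7 at an unadjusted p under 0.05), CD11b was 131 to 217 counts per cell in Jak2WT mice and 228 to 255 in mutant mice. These ranges did not overlap, but antibodies were scaled to each other in the test, and on that scale the log2 fold change was 0.22 (standard error 0.20, adjusted p = 0.642). Scaled to the number of cells instead, it was 0.58 (adjusted p = 0.0458), and the alternative that scales to cells called 17 of 73 antibodies. Counts per cell of the hamster isotype control were also higher in macrophages of every mutant mouse, as given below.

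CD11c in macrophages stood at 1.45, 4.19 and 3.82 counts per cell with dilation, 10.1 and 16 with aneurysm, and 0.738 to 5.42 in Jak2WT mice. It followed Itgax in the order of these groups but was not called between aneurysm and dilation (log2 fold change 2.14, standard error 0.66, adjusted p = 0.0662), where 2.74% of antibodies were called. Over 4 alternatives the adjusted p ran from 0.044 to 0.107. CD49d gave log2 fold changes between genotypes of -0.16 over all leukocytes and -0.11 in macrophages (adjusted p = 0.743 and 0.751). In counts per cell it was higher in mutant mice, at 5.34 ± 1.43 (SD, n = 5) in Jak2WT and 6.58 ± 0.947 (SD, n = 5) in mutant mice over all leukocytes, and the sign turned with the scaling. Scaled to the number of cells, the log2 fold changes were 0.30 over all leukocytes and 0.26 in macrophages (adjusted p = 0.361 and 0.267).

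ICAM1 on the surface was not called between genotypes. Over all leukocytes and in macrophages the sign of its difference turned with the scaling: the log2 fold changes were -0.08 and -0.15 with antibodies scaled to each other (adjusted p = 0.818 and 0.731), and 0.35 and 0.20 scaled to the number of cells (adjusted p = 0.361 and 0.41). Counts per cell over all leukocytes were 9.69 ± 3.11 in Jak2WT (SD, n = 5) and 12.3 ± 1.57 in mutant mice (SD, n = 5). In the resident macrophages, the Cd209f cluster and the IEG cluster the log2 fold changes with antibodies scaled to each other were negative. Those of the Icam1 transcript were positive. Counts of ICAM1 per cell in resident macrophages were close, at 8.62 ± 1.83 in Jak2WT (SD, n = 5) and 8.5 ± 1.42 in mutant mice (SD, n = 5). These values pool both resident clusters, whose shares differ between the genotypes, and the part of the shares was not tested. In resident macrophages 0% of antibodies were called by edgeR, with 14 at an unadjusted p under 0.05. With antibodies scaled to each other, ICAM1 had a log2 fold change of -0.54 (standard error 0.18, adjusted p = 0.114). In the Cd209f cluster, where the transcript was higher in mutant mice, the antibody stood at 17.3, 13.1, 14.1, 17.7 and 7.3 counts per cell in Jak2WT mice. It stood at 7.83, 9.02 and 11.8 with dilation, and at 11.7 and 8.4 with aneurysm. All Jak2WT mice other than mouse 5 lay above all mutant mice, with a log2 fold change of -0.87 (standard error 0.23, adjusted p = 0.0832) and 0% of antibodies called by edgeR (10 at an unadjusted p under 0.05). Without mouse 5 the adjusted p was 0.047, and over the 10 sets that leave out 1 mouse the adjusted p ran from 0.047 to 0.184. In the IEG cluster 0% of antibodies were called by edgeR (8 at an unadjusted p under 0.05), and ICAM1 had a log2 fold change of -0.43 (adjusted p = 0.272). The comparisons of antibodies in these 3 sets of cells were added after values were seen.

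**Figure D5:**
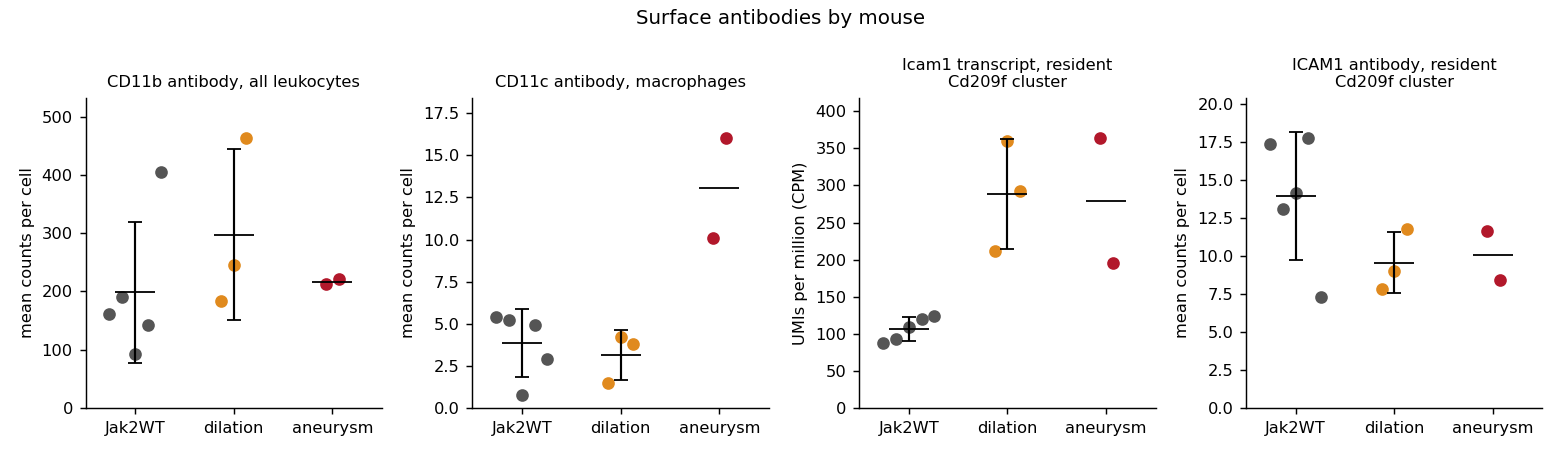
Antibody counts per cell for CD11b over all leukocytes and for CD11c in macrophages, and in the resident Cd209f cluster the Icam1 transcript in CPM beside the ICAM1 antibody in counts per cell; each point is a mouse, the bar is the group mean and the error bar is the SD, drawn only for groups of more than 2 mice. CD11b is highest in mice 5 and 10 (405 and 463 counts per cell), CD11c in macrophages is highest with aneurysm (10.1 and 16), and in the Cd209f cluster the transcript is higher in every mutant mouse while 4 of 5 Jak2WT mice have more ICAM1 antibody than any mutant mouse.

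Over 13 leukocyte types, the antibody and its transcript ordered the types alike for CD11b and Itgam (Pearson's r = 0.928 on log values, Spearman's rho = 0.879) and for CD11c and Itgax (0.875 and 0.84), less so for ICAM1 and Icam1 (0.66 and 0.676), and least for CD49d and Itga4 (0.528 and 0.264). These are descriptions over types that share a run and the same mice. CD11b was 2323 ± 674 counts per cell on cavity-type myeloid cells (SD, n = 4) and 744 ± 123 on neutrophils (SD, n = 6). ICAM1 was highest on cDC1 (44.5 ± 8.62, SD, n = 6) and cDC2 (30.3 ± 7.56, SD, n = 10). The mean over mice of a rat IgG1 isotype control stayed at or below 0.857 counts per cell in every type. In cavity-type myeloid cells, which had the highest mean, it reached 1.404 in a single mouse. The means of the hamster and rat IgG2b controls stayed at or below 0.834 and 0.118. In resident macrophages rat IgG2b had a mean of 0.0434 in Jak2WT and 0.153 in mutant mice, with ranges that overlapped. In resident macrophages 2 of the isotype controls were higher in mutant mice with no overlap, at 0.132 to 0.341 counts per cell in Jak2WT and 0.346 to 0.73 in mutant mice for rat IgG1, and at 0.0732 to 0.434 and 0.485 to 0.986 for the hamster control. Over all leukocytes rat IgG1 (0.117 to 0.242 and 0.252 to 0.348) and rat IgG2b (0 to 0.0546 and 0.0567 to 0.0925) also separated, while the hamster control overlapped. In all macrophages the hamster control separated (0.2 to 0.37 and 0.374 to 0.762), while rat IgG1 and rat IgG2b overlapped. The part of these controls in the antibody values of these sets of cells was not tested.

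Genes around the members were followed in 4 lists: 20 further integrin chains, 25 selectins, selectin ligands and junction molecules, 30 genes of integrin activation and anchorage, and 14 enzymes that glycosylate or sulphate selectin ligands. Between genotypes no listed gene was called over all leukocytes (60 tested) or in macrophages (48 tested). In resident macrophages 1.76% of 6821 genes were called. There 1 of the 22 activation genes tested rose, and no gene of the other lists was called. It was Cyth1, named after its value was seen, which encodes the β2 integrin partner cytohesin-1 (log2 fold change 1.03, standard error 0.22, adjusted p = 0.0187). Between aneurysm and dilation over all leukocytes, where 0.177% of 11309 genes were called, Itgb5 (1.82, adjusted p = 0.0373) and the junction molecule gene F11r (3.57, adjusted p = 0.0462) rose.

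In macrophages between aneurysm and dilation, 4 of the 6 further integrin chains tested rose and none fell, with a median log2 fold change of 1.28 against -0.01 over all genes; of all genes, 10.2% were called in this comparison. They were Itga5 (2.06, adjusted p = 0.000103), the α chain of the fibronectin receptor, Itga6 (2.03, adjusted p = 5.8e-05), an α chain of laminin receptors, and Itgb5 (1.37, adjusted p = 0.000131) and Itgav (1.19, adjusted p = 0.000408), which pair as a vitronectin receptor. Of 9 selectin, ligand and junction genes tested, 3 rose (median 1.05), namely F11r (2.95, adjusted p = 0.000247), the tetraspanin gene Cd9 (1.89, adjusted p = 0.00226) and the hyaluronan receptor gene Cd44 (1.05, adjusted p = 0.014). The antibody against CD9 was also called (log2 fold change 1.38, adjusted p = 0.0346), the only 1 of 73 antibodies called higher with aneurysm. That against CD44 was not called, at 22.9 to 31.3 counts per cell with dilation and 47.8 and 60.8 with aneurysm.

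Of 26 activation and anchorage genes tested there, 6 rose and 2 fell (median 0.23). Parvg, which encodes the leukocyte parvin, had 2.70 (adjusted p = 0.00234), Cytip 1.51 (adjusted p = 0.000267) and Ptk2b, the kinase PYK2, 0.89 (adjusted p = 0.00415). The genes that fell were Tln2 (-1.38, adjusted p = 0.000267), a talin that links integrins to actin, and Ptk2 (-1.10, adjusted p = 0.0469), the focal adhesion kinase. Of 10 enzymes tested, B4galt5 rose (1.10, adjusted p = 0.000242), a share near the 10.2% of all genes. The Spp1 and Il1b cluster was 66.8 and 54.3% of macrophages with aneurysm and 10.3 to 13.1% with dilation, and its part in these values was not tested. In the Lyve1 cluster no gene at all was called between these groups.

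By the pattern over 13 leukocyte types, compared by Pearson's r of log levels among 9287 genes, the genes most like Icam1 were Mapkapk2 (0.928), Csf2ra (0.916) and App (0.915). Those most like Vcam1 were Cx3cr1 (0.967), Mrc1 (0.961) and Cd163 (0.914), all known from macrophages. Itgam was most like Lamtor4 (0.941), Wfdc17 (0.929) and Ctsa (0.926), Itgal like Arhgap27 (0.938), Pak2 (0.924) and Mbd2 (0.917), and Itgax like Actb (0.882), Prr5l (0.88) and Tkt (0.873). Itgb2 was most like Paqr7 (0.892), Ugp2 (0.859) and Vav3 (0.854), Itgb1 like Uxs1 (0.88), Rpn1 (0.87) and Usp8 (0.868), and Selplg like Acpp (0.89), Hsd11b1 (0.881) and Pdcd6 (0.855). Itga4 had the weakest neighbours, Ppcdc (0.75), Irf8 (0.744) and Lrrk1 (0.698). These values describe an order of types and say nothing of shared function.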

How the data were processed

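The authors deposited whole, unnormalised counts, the UMI count of each gene, antibody and hashtag per cell barcode, made with Cell Ranger on the mm10 reference from cells pooled in a single run. The labels' processing notes name Seurat 3.0.0. Cell types were rebuilt here, and their shares may differ from those of the study. R 4.3.3 was used with Seurat 5.3.0, Matrix 1.6.5, the data.table package (version 1.17.8), edgeR 4.0.16, DESeq2 1.42.0 and limma 3.58.1. HTODemux (quantile 0.99) gave each cell its mouse. Cells with several or no hashtags, or more than 10% mitochondrial UMIs, were left out; no doublet caller was run, so doublets within a mouse remain. Clustering used 1966 of 2000 variable genes, after the members and listed genes were removed, and 20 principal components, at resolution 0.3 for all cells and 0.8 for macrophages. Names came from marker lists and were set after the clusters were seen.

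UMIs were summed per mouse, the replicate, from 10 cells or more (5 in the Cd209f, Txnip and IEG clusters). Low genes were removed by filterByExpr, sums were scaled by TMM, and edgeR's test was two-sided. Antibodies were fitted alike over all antibodies with counts. Dilation, aneurysm and Jak2WT shared 1 fit of 3 groups. Standardised levels were compared by exact permutation tests. The edgeR test was checked on simulated counts, and the permutation test on a made-up case without overlap. Binomial intervals are exact (Clopper-Pearson, 95%), and the floor of a share of 0 is 3 counts. Positions are those of GENCODE, on GRCm38. Alternatives were library totals without TMM, no filter, DESeq2, 1 fit of 3 groups, a 5% mitochondrial limit, MULTIseqDemux, resolution 0.5, every kept cell, antibody counts over cells, other weights, and each mouse left out. 1 further gene, with its antibody, is not reported here. The members, the lists and the rule for named genes (all members, up to 5 called genes per list and comparison by size of change, and 3 neighbours per member) were chosen with earlier results of these data known. Comparisons in single macrophage clusters, and those without cavity-type and thymocyte-like cells, were added after values were seen.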

Additional observations from a re-analysis of the deposited data

Results flagged for a closer look

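In groups of 5 mice, the highest or lowest mouse was set against the range of its group, and 4 of the 70 groups tested held a mouse far from the others, where chance gives about 1 in 20. Among mutant mice over all leukocytes, mouse 10 had an Itgb2 level of 299.6 CPM, with the next mouse at 193.7 CPM. The same mouse had 462.8 CD11b antibody counts per cell, with the next mouse at 245.1. Among Jak2WT mice, mouse 4 had an Icam1 level of 204.3 CPM in resident macrophages, with the next mouse at 81.5 CPM. Among mutant mice in resident macrophages, mouse 6 had an Itgal level of 14.9 CPM, with the next mouse at 3.61 CPM, a value that rests on 11 UMIs.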

How the results depend on the processing

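No paired analysis was possible because each hashtag number marks 1 mouse and no number is shared between groups. Icam1 in resident macrophages was called under the 8 alternatives and without each mouse, except that in the Txnip cluster alone Icam1 was too low to be tested and 0 members were called. Without the filter on low counts, 3 members were called between dilation and Jak2WT in macrophages, Icam1 (0.66), Vcam1 (1.11) and Itgax (-1.29), and 2 between aneurysm and dilation, with Vcam1 (-0.63) beside Itgax. Leaving out the Spp1 and Il1b cluster gave 1 member between genotypes in macrophages and 0 between aneurysm and dilation. Library totals without TMM gave 1 adhesion antibody between aneurysm and dilation in macrophages, CD11c, and counts over cells gave 1 between genotypes, CD11b. Standardised levels were judged at an unadjusted p under 0.05 by the exact permutation test. On them, equal weights gave 0 members between genotypes and 0 for aneurysm against the rest. Types with at least 10 cells in every mouse gave 2 (Icam1 and Itgal) and 3 (Itgax, Itgb2 and Selplg). Leaving out each mouse gave 0 to 1 members between aneurysm and dilation in macrophages, 1 to 2 on standardised levels between genotypes and 0 to 1 for aneurysm against the rest, 0 to 1 adhesion antibodies between aneurysm and dilation in macrophages, and 0 to 1 between genotypes in the Cd209f cluster. The cause of these shifts was not tested beyond what each alternative leaves out.

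Counts of calls over all genes moved more. Between genotypes in macrophages edgeR called 0 genes, against 26 without the filter, 52 by DESeq2 and 282 in 1 fit of 3 groups. Over all leukocytes it called 1, against 0 with library totals, 2 without the filter and 34 by DESeq2. In resident macrophages it called 120, against 412 without the filter. Without the filter 47 genes were called in T cells, 12 in B cells, 77 in cDC2 and 40 in ILC2, and DESeq2 called 25 in cDC2. Dilation against Jak2WT in macrophages gave 2, against 238 without the filter and 20 by DESeq2. Aneurysm against dilation over all leukocytes gave 20, against 12 with library totals, 52 without the filter, 143 by DESeq2 and 80 without cavity-type and thymocyte-like cells. Antibody counts over cells gave 17 antibodies between genotypes and 12 between dilation and Jak2WT in macrophages, against 0 in both. Of 70 values of called results under the alternatives, 0 changed sign, and of 2112 values of results not called, 168 did. Depth limits the Jak2WT mice most, above all mouse 4 with 24 resident macrophages and 9 in the IEG cluster, and 2 mice with aneurysm give little measure of spread.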

Other observations

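A cluster outside the leukocytes also held the ligands. In 27 cells named from fibroblast, smooth muscle and endothelial markers (4 mice with at least 5 such cells), Icam1 stood at 212 ± 149 CPM (SD, n = 4), Vcam1 at 178 ± 203 CPM (SD, n = 4) and Itgb1 at 560 ± 215 CPM (SD, n = 4), while Itgal and Itgax had no UMI. In 31 platelets of 4 mice, Itgb1 stood at 1227 ± 697 CPM (SD, n = 4) and Itgb2 at 231 ± 80.4 CPM (SD, n = 4). Itgal stood at 104 ± 182 CPM (SD, n = 4) and Itga4 at 31.3 ± 62.5 CPM (SD, n = 4), and Icam1, Vcam1, Itgam, Itgax and Selplg had no UMI. Platelets were shallow, with a median of 1033 UMIs and 30 of 34 cells under 2000 UMIs. These levels therefore rest on few UMIs, and a count of 0 there says little. Among macrophage clusters, Selplg was lowest in the IEG cluster (66.5 ± 10.8 CPM, SD, n = 10), and Itgb2 was highest in monocyte-like cells (348 ± 110 CPM, SD, n = 3).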
